A study of Homo sapiens with 6 samples.

Results

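The mitochondrial ribosomal protein genes were taken as the protein-coding genes on primary contigs whose symbol is MRPL or MRPS followed by a number, with or without a final letter A to C. The rule uses names alone and found 78 of the 67130 genes in the deposited table, of which 49 are MRPL and 29 are MRPS genes. RNA-seq was made of hTERT-RPE1-TOShOFD1 cells, a telomerase-immortalized line of human retinal pigment epithelial origin that carries a lentiviral short hairpin RNA (shRNA) to OFD1 under Tet-On control. OFD1 is a protein of centrioles and centriolar satellites, and the study depleted it to ask how it acts on cell cycle progression. The control group was 3 samples without doxycycline, given the genotype WT in the labels, and the OFD1-depleted group was 3 samples with 200 ng/mL doxycycline, given as OFD1 knockdown, all at 72 h. Both groups carry the same lentiviral insert. By the study's methods infected cells were kept for 2 weeks in puromycin or blasticidin, and no cloning step is named. Doxycycline was given to every OFD1-depleted sample, and 0 samples had doxycycline without the shRNA, so effects of the drug and of OFD1 loss cannot be told apart.

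The mitochondrial ribosome, or mitoribosome, translates the few mRNAs that mitochondrial DNA encodes, all for subunits of the respiratory chain and ATP synthase. Its rRNAs come from the mitochondrial genome, while all of its proteins are encoded in the nucleus, made in the cytosol and imported. Doxycycline is a tetracycline, a class of antibiotics that binds the small subunit of bacterial ribosomes and also blocks translation by mitoribosomes. The proteins named MRPL belong to the large subunit, which joins amino acids. Most of those named MRPS belong to the small subunit, which reads the mRNA. MRPS30 and MRPS18A sit in the large subunit in spite of their names, and MRPS36 is now known as a part of the 2-oxoglutarate dehydrogenase complex, so 51 members were counted as large-subunit and 26 as small-subunit proteins.

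Values are FPKM, fragment numbers divided by transcript length and by the total of mapped fragments in the sample, and are therefore per length. The knockdown target OFD1 had 3.34, 3.62 and 3.44 FPKM in control against 0.795, 0.763 and 1.43 FPKM in depleted samples (log2 fold change -1.75, limma adjusted p = 0.00085). OFD1-depleted replicate 2 stood apart from the other samples. The FPKM of all genes summed to 493510 there, against 433262 to 444337 in the other two OFD1-depleted samples and 408302 to 414547 in the controls. Transcripts of mitochondrial DNA took 8.66% of this sum in control replicate 2, 13.1% and 13.8% in the other controls and 15.6% to 19.3% in the OFD1-depleted samples. Of 8 retinal pigment epithelium markers only MITF and OTX2 averaged at least 1 FPKM over the samples, and RPE65 and RLBP1 were near 0. BEST1 was at 4.33 FPKM in OFD1-depleted replicate 2 and at 0.007 to 0.048 FPKM in the other samples. Of 4 epithelial markers the keratins KRT8 and KRT18 were above 100 FPKM while CDH1 was near 0 and EPCAM listed at 0. Photoreceptor markers were at or near 0, with CRX, SAG and RCVRN listed at 0 and NRL at 0.153 and 0.209 FPKM in control and OFD1-depleted samples. The labels also give the tissue as retina and describe removal of retinas before RNA extraction, although the samples are a cultured line.

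All 78 members averaged at least 1 FPKM over the 6 samples and were tested. In bulk RNA, fewer cells and less RNA per cell cannot be told apart. The median member had 24.2, 26.4 and 22.7 FPKM in control replicates 1, 2 and 3 and 25.2, 30.3 and 23.1 FPKM in OFD1-depleted replicates 1, 2 and 3. Together the members took 0.533%, 0.589% and 0.528% of the summed FPKM in control and 0.523%, 0.613% and 0.490% in OFD1-depleted samples, so the groups overlapped and replicate 2 of each group was its highest. Large-subunit members summed to 2.17 ± 0.0164 times the FPKM of small-subunit members in control and 2.21 ± 0.135 times in OFD1-depleted samples (SD, n = 3 in each group). That ratio was 2.13 in OFD1-depleted replicates 1 and 3 and 2.36 in replicate 2.

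Levels differed widely within the family. The means over the 6 samples ran from 4.46 FPKM for MRPL42 to 95.1 FPKM for MRPL43. MRPL43 ranged from 87.9 to 96.6 FPKM in control and from 84.3 to 111 FPKM in OFD1-depleted samples. The next highest were MRPS24, the homologue of bacterial S3, at 88.7 FPKM over the 6 samples and MRPS34, found only in mitochondrial ribosomes, at 80.7 FPKM. MRPL23, which lies beside the tunnel through which the new protein leaves, had 71.2 ± 7.79 FPKM in control against 81.0 ± 17.4 FPKM in depleted samples (SD, n = 3 in each group). MRPL12, which forms the flexible stalk that recruits translation factors, had 69.9 ± 4.02 and 77.6 ± 19.1 FPKM (SD, n = 3 in each group). The spread between samples of one group covers the steps between these neighbours, so their order is not resolved. MRPS16, the homologue of bacterial S16, followed among small-subunit genes with 51.6 ± 2.02 FPKM in control against 56.4 ± 6.13 FPKM in depleted samples (SD, n = 3 in each group). At the low end, MRPL42 had 4.0 ± 0.598 FPKM in control against 4.91 ± 0.672 FPKM in depleted samples, and MRPL50 had 4.31 ± 0.0908 and 5.34 ± 0.377 FPKM (SD, n = 3 in each group). MRPL48, a protein of the central protuberance, had 7.97 ± 1.70 and 7.32 ± 1.11 FPKM (SD, n = 3 in each group). By the mean over the 6 samples the lowest MRPS genes were MRPS25, MRPS31 and MRPS23, at 6.54, 7.62 and 9.22 FPKM. MRPS23 had the least even values of the family, with 5.87, 7.07 and 13.2 FPKM in control against 15.3, 8.05 and 5.90 FPKM in depleted samples. One high sample in each group gave it the largest standard error among the members, 0.341 on the log2 scale.

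The comparison of OFD1-depleted with control samples called 2 members higher and 0 lower (limma on log2(FPKM + 0.1), Benjamini-Hochberg adjusted p under 0.05 over the 12025 genes tested). The 2 genes were MRPL33 and MRPS33. They were 2.56% of the members, against 5.07% of all genes tested called higher, and the 0 members called lower stood against 11.9% of all genes tested. At an unadjusted p under 0.05, 9 members (11.5%) were higher and 1, MRPS34, was lower, against 11.5% and 19.1% of all genes tested. The labels do not say whether replicates were separate cultures. The paper's legend for RNA expression in RPE1 and OFD1-depleted RPE1 cells calls each column a biological replicate. How the replicates were kept apart is not described, so p-values measure the spread between these samples alone. The log2 fold changes of the members ran from -0.40 (MRPS34) to 0.69 (MRPL33), with standard errors of 0.119 to 0.341 and a median standard error of 0.155. A difference of 0.5 or more in either direction was reached by 2 members, or 2.56%, and by 21.4% of all genes tested.

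**Figure D1:**
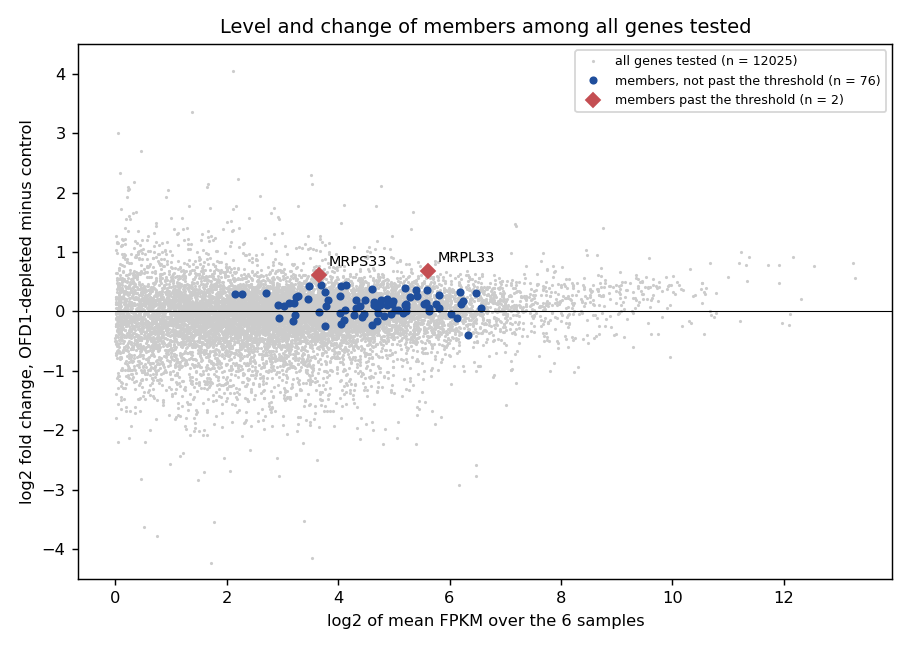
Log2 fold change (OFD1-depleted minus control, on log2(FPKM + 0.1)) against the log2 of the mean FPKM over the 6 samples, with all 12025 genes tested as grey points, 76 members as blue circles and MRPL33 and MRPS33, the 2 members with an adjusted p under 0.05, as red diamonds. The members lie in a narrow band between -0.40 and 0.69, while all genes tested run from -4.23 to 4.05.

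MRPL33 is the homologue of bacterial L33, a small protein of the large subunit (ENSG00000243147, GRCh38 chromosome 2 from 27771717 to 27988087, plus strand). It had 36.5, 37.5 and 38.2 FPKM in control against 53.3, 72.2 and 56.8 FPKM in depleted samples. Every OFD1-depleted value lay above every control value, and the controls differed little among themselves. The means were 37.4 ± 0.826 and 60.8 ± 10.0 FPKM (SD, n = 3 in each group), a log2 fold change of 0.69 (SE 0.139, limma adjusted p = 0.00634). Without OFD1-depleted replicate 2 the log2 fold change was 0.56, and MRPL33 stayed past the threshold in 18 of 18 alternative settings. The annotated span of MRPL33 overlaps BABAM2 on the same strand, which had 18 FPKM in control against 24.9 FPKM in depleted samples (log2 fold change 0.47, limma adjusted p = 0.0283). It also overlaps RBKS on the opposite strand, at 2.46 and 2.72 FPKM. How reads of overlapping genes were divided was not tested. The 250 bases before the start of MRPL33 (RefSeq, GRCh38.p14) are shown because the gene had the largest difference of the family, and stand in lower case throughout since none of the motifs described below occurs in them.
MRPL33, chr2:27771469-27771718, plus strand: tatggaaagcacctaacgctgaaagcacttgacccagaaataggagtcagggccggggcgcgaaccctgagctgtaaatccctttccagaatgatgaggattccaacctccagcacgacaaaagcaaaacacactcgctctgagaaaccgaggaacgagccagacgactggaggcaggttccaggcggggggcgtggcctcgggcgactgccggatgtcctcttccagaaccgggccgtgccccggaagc

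MRPS33 is a small-subunit protein with no bacterial counterpart (ENSG00000090263, GRCh38 chromosome 7 from 141002610 to 141015228, minus strand). Its values were 9.79, 12.2 and 8.11 FPKM in control against 12.8, 15.6 and 17.7 FPKM in depleted samples. The groups did not overlap, although the lowest OFD1-depleted and the highest control value were close. The means were 10.0 ± 2.04 and 15.4 ± 2.46 FPKM (SD, n = 3 in each group), a log2 fold change of 0.62 (SE 0.176, limma adjusted p = 0.034). The call held in 10 of 18 alternative settings, with adjusted p from 0.00467 to 0.162 over them. It was lost without control replicate 1 or 3 (limma adjusted p = 0.0946 and 0.162) and without OFD1-depleted replicate 2 or 3 (0.0519 and 0.116), with log2 fold changes of 0.61, 0.48, 0.60 and 0.51.

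Several members lay just outside the threshold with a difference in the same direction. MRPL45 sits at the tunnel exit and helps to hold the ribosome at the inner membrane. It had 13.6, 17.8 and 13.7 FPKM in control against 20.7, 20.4 and 19.8 FPKM in depleted samples, with no overlap (log2 fold change 0.44, limma adjusted p = 0.0526). Its pseudogene MRPL45P2 averaged 2.10 FPKM, or 11.9% of MRPL45, and reads of such a near copy could be split between the genes. MRPL30, the homologue of bacterial L30, had 8.89, 10.4 and 9.20 FPKM in control against 12.4, 14.6 and 11.6 FPKM in depleted samples (log2 fold change 0.43, limma adjusted p = 0.056). It overlaps AC092587.1 and AC079447.1 on the same strand. These averaged 0.0169 and 0.133 FPKM in control against 1.90 and 1.55 FPKM in depleted samples. How reads were divided between MRPL30 and these genes was not tested. MRPS30, a mitochondria-specific protein of the large subunit, had 9.87, 13.1 and 9.86 FPKM in control against 17.2, 14 and 13.4 FPKM in depleted samples (log2 fold change 0.45, limma adjusted p = 0.0788). None of these 3 genes had an OFD1-depleted value below a control value. MRPS21, the homologue of bacterial S21, differed by 0.43 (limma adjusted p = 0.161), but its groups overlapped, at 12.2 to 15 FPKM in control and 14.6 to 25.7 FPKM in OFD1-depleted samples. For MRPL45, MRPL30 and MRPS30 the adjusted p fell under 0.05 in 6, 4 and 4 of 18 alternative settings, and for MRPS21 in 0. Without control replicate 2, MRPL45 and MRPS30 passed (limma adjusted p = 0.0268 and 0.0471), at log2 fold changes of 0.57 and 0.58.

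None of the members with the lowest differences passed the test. MRPS34 had 82.9, 97.8 and 92.3 FPKM in control against 67.8, 90.6 and 52.8 FPKM in depleted samples. OFD1-depleted replicates 1 and 3 lay below all controls, and replicate 2 lay among them. The log2 fold change was -0.40 (SE 0.181, limma adjusted p = 0.16), and -0.60 without replicate 2. MRPS11, the homologue of bacterial S11, had 17.1, 14.8 and 12.2 FPKM in control against 12.1, 15 and 10.3 FPKM in depleted samples (log2 fold change -0.24, limma adjusted p = 0.379). MRPS26, a mitochondria-specific protein, had 25.3, 25.3 and 27.3 FPKM and then 21.4, 31.6 and 16.1 FPKM (log2 fold change -0.23, limma adjusted p = 0.499). Both overlapped between groups, and in both OFD1-depleted replicate 2 was the highest of its group. MRPL10, which anchors the stalk, had 17.7, 17.7 and 17.9 FPKM in control against 16.2, 17.3 and 12.8 FPKM in depleted samples (log2 fold change -0.21, limma adjusted p = 0.34). It was the only member with all OFD1-depleted values below all controls. MRPL22, which lines the exit tunnel, had a log2 fold change of -0.16, with control replicate 2 at 13.7 FPKM and the other samples between 7.06 and 9.33 FPKM. MRPL49 also had -0.16, at 27.2 ± 0.854 FPKM in control against 24.5 ± 3.43 FPKM in depleted samples (SD, n = 3 in each group).

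**Figure D2:**
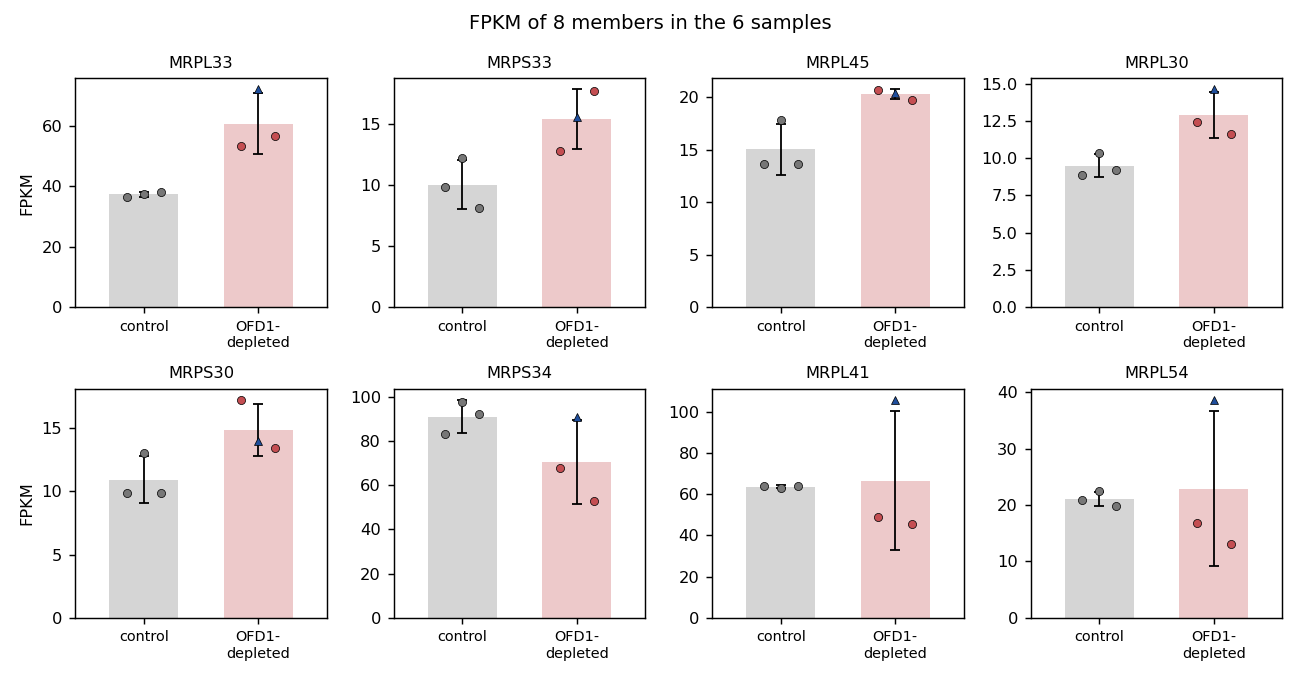
FPKM of 8 members in the 3 control (grey) and 3 OFD1-depleted samples (red circles for replicates 1 and 3, a blue triangle for replicate 2), with bars at the group means and error bars of 1 SD. All OFD1-depleted points of MRPL33, MRPS33, MRPL45, MRPL30 and MRPS30 are above the controls, while in MRPS34, MRPL41 and MRPL54 replicate 2 is far above the other OFD1-depleted samples.

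Counted by overlap, all OFD1-depleted values were above all control values in 14 members (17.9%), against 13.8% of all genes tested. Beside MRPL33, MRPS33, MRPL45, MRPL30 and MRPS30 these were MRPL3, MRPL32, MRPL50, MRPS7, MRPS14, MRPS18C, MRPS25, MRPS31 and MRPS35. The pseudogenes MRPS31P4 and MRPS31P5 averaged 37.3% and 13.2% of MRPS31. On the opposite strand CACYBP overlaps MRPS14 and NR2C2 overlaps MRPS25, at 251% and 90.9% of the member's mean FPKM. In all, 28 members overlap a gene with a mean of at least 1 FPKM. How reads were divided between such genes was not tested. MRPL3 is the homologue of bacterial L3, near the peptidyl transferase centre, and had 50.8, 53.8 and 47.0 FPKM in control against 60.0, 62.4 and 61.0 FPKM in depleted samples (log2 fold change 0.28, limma adjusted p = 0.139). MRPS7 had 33.9, 40.5 and 36.5 FPKM in control against 48.9, 51.3 and 41.8 FPKM in depleted samples (log2 fold change 0.35, limma adjusted p = 0.0929). All OFD1-depleted values were below all controls in 1 member (1.28%), MRPL10, against 22.3% of all genes tested. For a single gene, 3 samples against 3 cannot give an exact permutation p under 0.1.

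The median log2 fold change of the 78 members was 0.12, with 58 above 0, against -0.03 over all genes tested, of which 46.3% were above 0, but the members' median was -0.03 under TPM scaling, with 31 above 0. TPM scaling, which sets all samples to the same total, moved the median of all genes by -0.147. Relative to the median of all genes, the members' median was 0.15 higher both as deposited and under TPM scaling. It was 0.058 higher with array weights and 0.021 higher without OFD1-depleted replicate 2. The median was 0.11 over the 51 large-subunit and 0.12 over the 26 small-subunit members, and 0.13 over the 46 members classed as bacterial homologues and 0.06 over the 31 classed as mitochondria-specific, a class in which MRPS18A and MRPS18B, relatives of bacterial S18, were also put. These 4 medians are as deposited and would shift with TPM scaling as the whole family did. Without OFD1-depleted replicate 2 they were -0.04 (large), 0.09 (small), 0.0063 (bacterial homologues) and -0.02 (mitochondria-specific). By place in the ribosome, the 7 members of the central protuberance ran from -0.11 to 0.07, the 6 around the tunnel exit from -0.16 (MRPL22) to 0.44 (MRPL45), the 3 of the stalk from -0.21 (MRPL10) to 0.12 (MRPL12), and the 3 relatives of bacterial S18 from 0.0017 (MRPS18B) to 0.32 (MRPS18C). None of these 19 passed the test, against 2 of all 78 members, and 5.07% of all genes tested called higher and 11.9% lower. With so few genes the count does not set these places apart from the family.

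The members' median rested on OFD1-depleted replicate 2. Relative to the control mean of each gene, the median member was at 0.06, 0.35 and -0.06 on the log2 scale in OFD1-depleted replicates 1, 2 and 3, and 48, 71 and 31 of the 78 members were above it. Over all genes tested the same medians were 0.04, -0.09 and -0.08. Replicate 2 was the highest of all 6 samples in 54 members (69.2%), against 21.5% of all genes tested. Control replicate 2 was the highest in 9 members. Without OFD1-depleted replicate 2 the members' median log2 fold change was 0.0011, with 39 of 78 above 0. That fit called 1 member higher, MRPL33, and 4 lower, MRPL41, MRPL54, MRPS26 and MRPS34, against 8.96% of all genes tested higher and 14.5% lower in that fit.

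**Figure D3:**
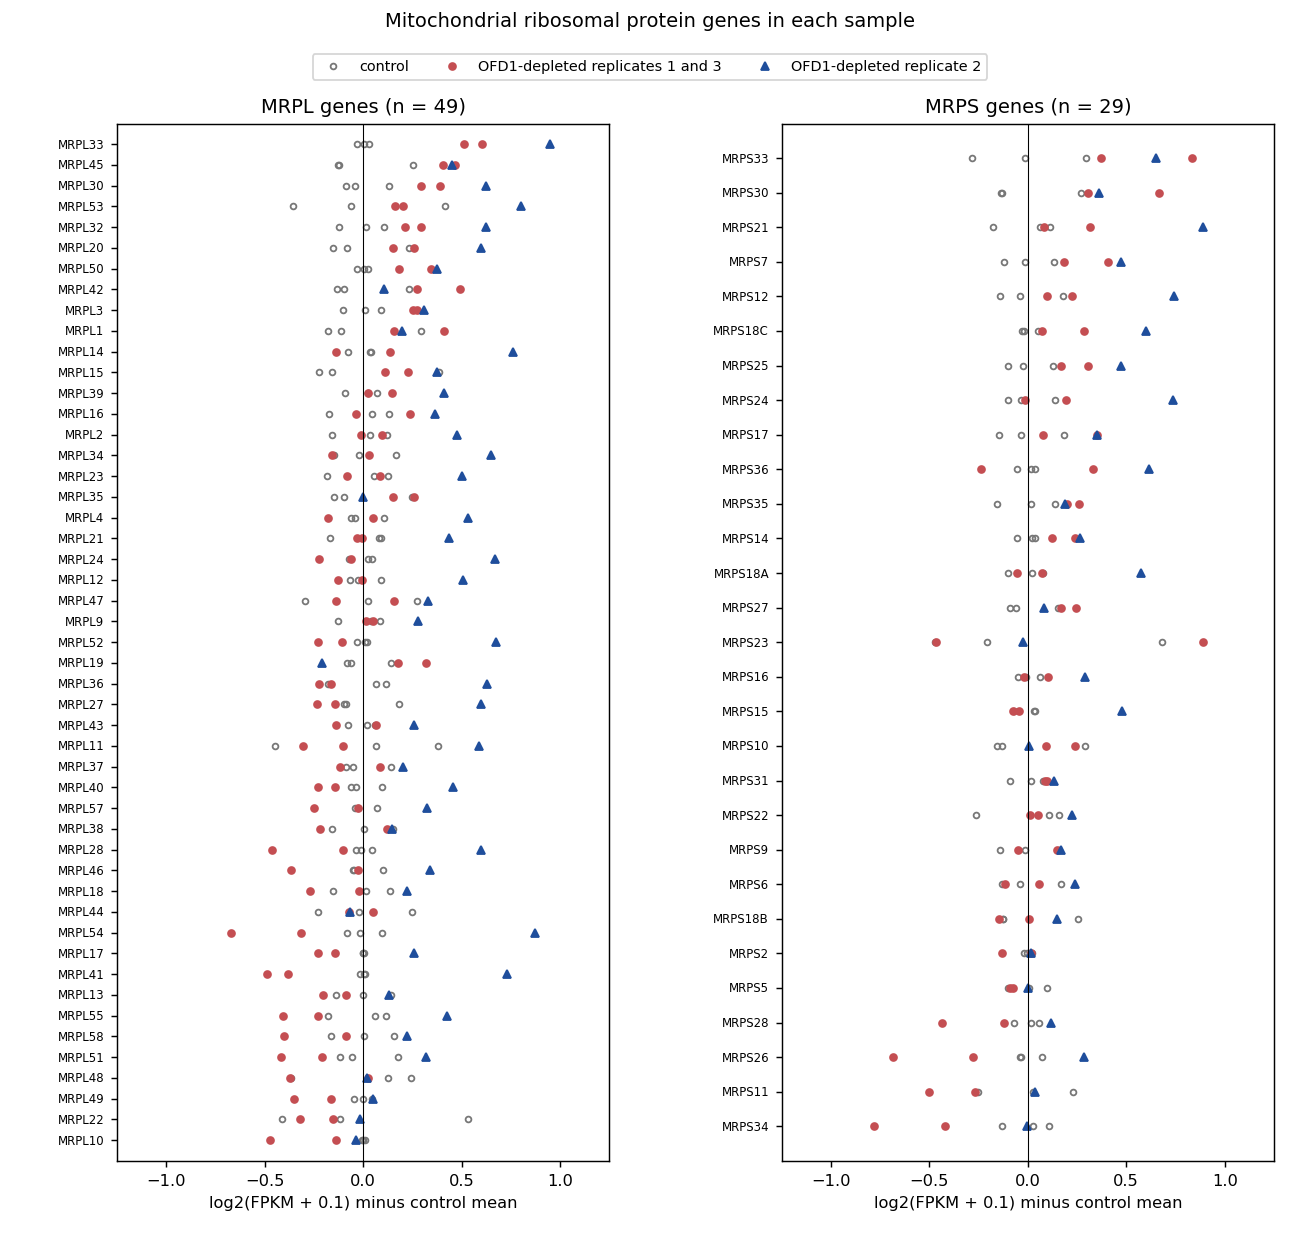
Each member's log2(FPKM + 0.1) in each sample minus the mean of the 3 controls, ordered by log2 fold change within the 49 MRPL and 29 MRPS genes, with open grey circles for controls, red circles for OFD1-depleted replicates 1 and 3 and blue triangles for replicate 2. Replicate 2 is above the control mean in 71 members and replicate 3 in 31, and the median log2 fold change of 0.12 becomes -0.03 under TPM scaling.

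MRPL41 and MRPL54, both mitochondria-specific proteins of the large subunit, were named after their values were seen, because they turned on this sample most. MRPL54 had 20.8, 22.5 and 19.9 FPKM in control against 16.9, 38.6 and 13.2 FPKM in depleted samples. MRPL41 had 63.8, 62.9 and 64.0 FPKM in control against 48.7, 106 and 45.4 FPKM in depleted samples. In both genes 2 of the OFD1-depleted samples lay below all controls and replicate 2 lay above all of them. The log2 fold changes over all 6 samples were -0.04 for MRPL54 and -0.05 for MRPL41, and without replicate 2 they were -0.49 and -0.43.

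The excess of OFD1-depleted replicate 2 went with the length of the mRNA. The difference between replicate 2 and the mean of replicates 1 and 3 ran from -0.46 (MRPL19, mRNA of 7825 bases) to 1.37 (MRPL54, mRNA of 608 bases), with a median of 0.32 over the members and -0.08 over all genes tested. Across the 78 members it correlated with the log2 of mRNA length at a Pearson r of -0.68 and a Spearman coefficient of -0.69, and across the 10694 tested protein-coding genes with a length at -0.60 and -0.66. The correlation with the GC content of the mRNA was 0.62 by either measure across the members, and 0.47 and 0.51 across the protein-coding genes. Genes are not independent replicates, and all points share the same libraries. In the 39 members with an mRNA of at most 1224 bases the median difference was 0.57, and replicate 2 was the highest of all samples in 37. Among the 39 longer members the median was 0.19, and replicate 2 was the highest in 17. The log2 fold change between groups showed little relation to length across the members (Pearson r 0.055, Spearman coefficient 0.044), with medians of 0.12 in the shorter and 0.11 in the longer members. Without replicate 2 those medians were -0.04 and 0.05, and the log2 fold change correlated with length at 0.35 (Pearson) and 0.34 (Spearman). With GC content it correlated at -0.32 and -0.29 over all samples and at -0.54 by either measure without replicate 2. What length and GC content contribute to the group comparison was not tested.

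**Figure D4:**
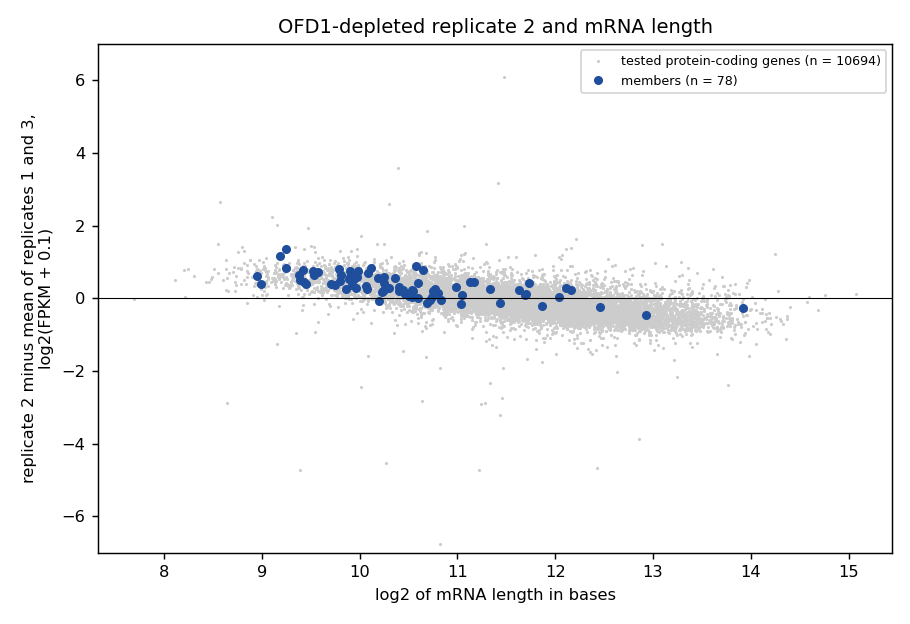
Difference between OFD1-depleted replicate 2 and the mean of replicates 1 and 3 in log2(FPKM + 0.1) against the log2 of mRNA length in bases, for 10694 tested protein-coding genes (grey) and the 78 members (blue). Members with an mRNA of at most 1224 bases have a median of 0.57 and longer ones of 0.19, and across the members the Pearson r is -0.68.

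The other parts of the mitochondrial translation machinery were compared in the same fit. The 71 tested nuclear genes of the other lists had 3 called lower (4.23%) and 4 higher (5.63%), against 11.9% and 5.07% of all genes tested, and a median log2 fold change of 0.04. Of the 5 mitoribosomal proteins with other symbols, DAP3, a GTP-binding protein of the small subunit, rose from 34.9 ± 2.88 to 49.8 ± 1.62 FPKM (SD, n = 3 in each group, log2 fold change 0.51, limma adjusted p = 0.0147). Its call was lost without control replicate 1 or 3 or OFD1-depleted replicate 1, at log2 fold changes of 0.50, 0.46 and 0.50 (limma adjusted p = 0.0808, 0.0862 and 0.0509), and under TPM scaling, at 0.37 (0.0592). The other 4 of that list did not pass the test, at log2 fold changes of -0.18 (AURKAIP1) to 0.13 (CHCHD1). Among 27 mitoribosome assembly genes 1 (3.70%) was called lower and 0 higher, against 11.9% and 5.07% of all genes tested. That gene was MRM2, which methylates the large rRNA and fell from 8.12 ± 1.45 to 4.12 ± 0.691 FPKM (SD, n = 3 in each group, log2 fold change -0.96, limma adjusted p = 0.00408).

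Of 15 translation factors 1 (6.67%) was called lower and 3 (20%) higher, against 11.9% and 5.07% of all genes tested. TACO1, an activator of the translation of the cytochrome oxidase subunit COX1, had 19.5, 18.6 and 17.6 FPKM in control against 4.64, 5.98 and 5.07 FPKM in depleted samples. This was the largest difference in these lists, at a log2 fold change of -1.82 (SE 0.140, limma adjusted p = 1.88e-05), and it passed in 18 of 18 alternative settings. OXA1L, the insertase that places new proteins into the inner membrane, rose from 50.8 ± 0.866 to 77.8 ± 4.99 FPKM (SD, n = 3 in each group, log2 fold change 0.61, limma adjusted p = 0.00477). MRRF, the ribosome recycling factor, rose from 4.42 ± 0.268 to 6.91 ± 0.599 FPKM, and GFM1, an elongation factor, from 7.76 ± 0.749 to 11.3 ± 0.918 FPKM (SD, n = 3 in each group, limma adjusted p = 0.012 and 0.022). Among 17 mitochondrial aminoacyl-tRNA synthetases, AARS2, which charges tRNA with alanine, fell from 3.43 ± 0.463 to 2.21 ± 0.238 FPKM (SD, n = 3 in each group, limma adjusted p = 0.0472), a call that held in 7 of 17 alternative settings. The calls of OXA1L held in 18, of MRRF in 16 and of GFM1 in 11 of 18. MRRF was lost without control replicate 1 (limma adjusted p = 0.062) and under TPM scaling (0.0633). GFM1 was lost without control replicate 1 or 3 or OFD1-depleted replicate 1 or 3 and in 3 other settings, at limma adjusted p = 0.0591 to 0.131. AARS2 was lost without any 1 sample other than OFD1-depleted replicate 2, and in several other settings, at limma adjusted p = 0.0511 to 0.201. None of the 7 genes of mitochondrial transcription and RNA stability passed (limma). At an unadjusted limma p under 0.05, 2 of them (28.6%) were higher, against 11.5% of all genes tested.

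**Figure D5:**
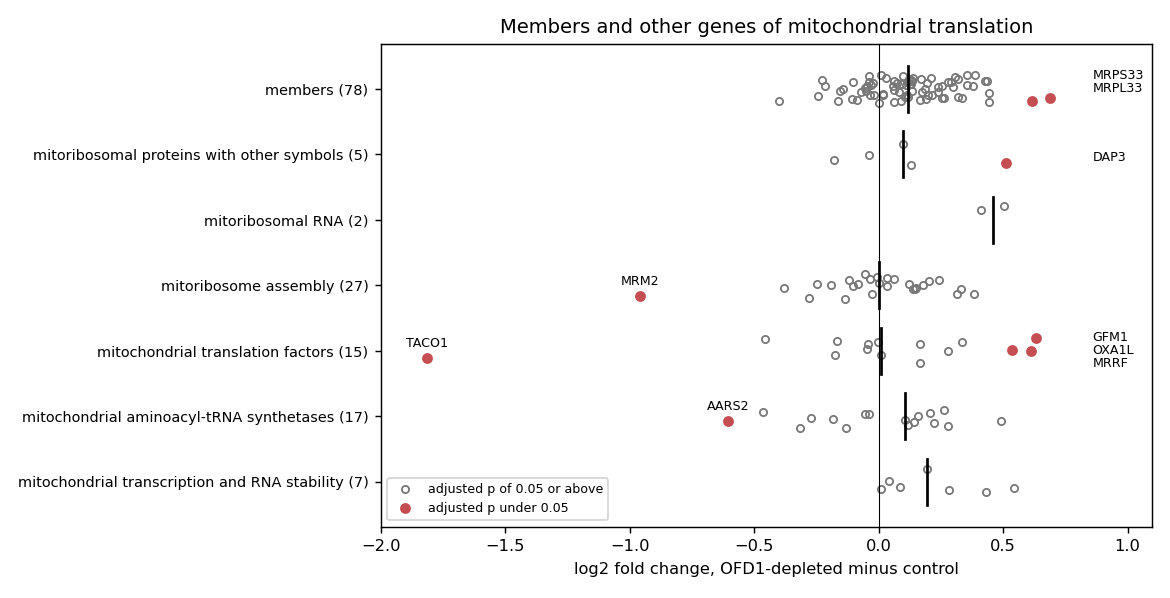
Log2 fold changes (OFD1-depleted minus control) of the 78 members and of 6 other lists of mitochondrial translation, 1 circle per gene, filled red where the limma adjusted p was under 0.05, with a black bar at each list's median and the number of genes tested in brackets; names at the right run from the smallest to the largest rise in the list. TACO1 at -1.82, MRM2 at -0.96, AARS2 at -0.61, VARS2 at -0.47 and GFM2 at -0.46 lie below the range of the members. The members' median of 0.12 becomes -0.03 under TPM scaling.

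The rRNAs with which the members assemble were at 745, 534 and 593 FPKM (MT-RNR1, small subunit) and 2451, 1784 and 2204 FPKM (MT-RNR2, large subunit) in control. In OFD1-depleted samples they were at 752, 935 and 791 FPKM and at 2869, 3089 and 3100 FPKM. Neither group overlapped the other for either rRNA, and neither passed the test (log2 fold changes 0.41 and 0.50, limma adjusted p = 0.116 and 0.0691). With array weights MT-RNR2 passed (log2 fold change 0.38, limma adjusted p = 0.0412), and under quantile normalization its difference was -0.09. The 13 mRNAs of mitochondrial DNA had a median log2 fold change of 0.78, with 7 called higher and 0 lower, and the 77 cytosolic ribosomal protein genes had 0.41, with 11 higher and 0 lower (limma). At an unadjusted limma p under 0.05, 12 (92.3%) and 48 (62.3%) of them were higher, against 11.5% of all genes tested. At that p 0 were lower, against 19.1%. The adjusted calls, 7 and 11, were 53.8% and 14.3% of the lists, against 5.07% of all genes tested. With no filter both counts of adjusted calls were 0, and with array weights they were 11 and 43. Without OFD1-depleted replicate 3 they were 1 and 7, and the cytosolic count was 0 without control replicate 1 or 3 and 4 without OFD1-depleted replicate 1. OFD1-depleted replicate 2 was the highest sample in 73 of the 77 cytosolic genes, and without it their median was 0.25.

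The starts of the members were searched for 3 motifs, on both strands, in RefSeq windows of GRCh38.p14 from 250 bases before to 50 bases after each annotated start. The motifs were AAGATGGCG, known from sites of YY1, CCGGAAGT, known from sites of ETS factors such as GABPA, and GCGCATGCG, known from sites of NRF1. These factors are known for sites at the starts of genes for mitochondrial proteins. A window was found for 69 of the 78 members. At least 1 motif was in 25 of the 69 (36.2%), against 19.2% of the 9029 tested genes with a window and 8.77% of all 27305 genes with one. The YY1 letters were in 13 members (18.8%), against 5.18% of tested genes. The ETS letters were in 12 members (17.4%), against 11% of tested genes, and the NRF1 letters in 3 members (4.35%), against 4.61%. No motif of one kind shares letters with another in the windows printed here.

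In 10 of the 13 members with the YY1 letters the match lay after the annotated start of transcription, and in 9 the ATG within it was the annotated start codon (GENCODE version 44). The 5 windows below, with the motif in capitals, show this arrangement, in which the letters carry both the motif and the first codon.
MRPS24, chr7:43869480-43869508, minus strand: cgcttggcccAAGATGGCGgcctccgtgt
MRPS18B, chr6:30617853-30617881, plus strand: ggcgtacgtcAAGATGGCGgcgtctgtat
MRPL38, chr17:75904860-75904888, minus strand: ggccggagggAAGATGGCGgcgccctggt
MRPS10, chr6:42217834-42217862, minus strand: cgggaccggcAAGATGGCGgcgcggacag
MRPL46, chr15:88467362-88467390, minus strand: gggagaacgaAAGATGGCGgcgcccgtaa

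Each of the 12 members with the ETS letters had a match before an annotated start, and 1 of them, MRPS22, also had a match after one of its starts. They are shown for 3 members with high levels, with the motif or its reverse complement in capitals, together with the NRF1 letters of 3 members.
MRPS34, ETS, chr16:1773137-1773164, minus strand: tcttccggtgACTTCCGGccggaccgct
MRPL20, ETS, chr1:1407320-1407347, minus strand: gaccttcgccCCGGAAGTatcgcagggg
MRPL3, ETS, chr3:131502986-131503013, minus strand: gtaaaacgcaCCGGAAGTgggtccggcg
MRPL17, NRF1, chr11:6683365-6683393, minus strand: ccgagctaagGCGCATGCGttccctgaaa
MRPS18C, NRF1, chr4:83455912-83455940, plus strand: gaaaggtgctGCGCATGCGtattgaaaaa
MRPL22, NRF1, chr5:154941039-154941067, plus strand: ccagagtattGCGCATGCGtgctgtccag

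Members with and without a motif differed little in their medians, at log2 fold changes of 0.11 over the 25 with at least 1 motif and 0.12 over the 44 with none. The 2 members called higher, MRPL33 and MRPS33, held none. MRPS24 and MRPS34, which carry a YY1 and an ETS match, were among the highest members, while MRPL42 and MRPL50, the lowest of the family, both carry the YY1 letters. Log2 fold changes ran from -0.40 (MRPS34) to 0.39 (MRPL53) among members with the ETS letters and from -0.16 (MRPL22) to 0.45 (MRPS30) among those with the YY1 letters.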

How the data were processed

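The members and all gene lists were chosen with earlier results of these data known. Per the study's methods, paired-end reads of a directional library were aligned to GRCh38 with HISAT2 (version 2.0.5 per the submitters' processing notes) and summarized by StringTie. The authors deposited 1 FPKM value per gene and sample, and the strand setting is not given in the sources used here. Read counts were not used, so the depth behind each value is unknown and no count test was run. The table columns were matched to the samples by name.

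Genes that averaged 1 FPKM or more across all 6 samples were compared with limma (version 3.58.1, R 4.3.3) with a variance trend on log2(FPKM + 0.1), which understates the change of low genes. Two-sided p-values were adjusted by Benjamini-Hochberg over all genes tested. The script was tested on simulated data.

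Named members were those past the threshold, the 3 highest and 3 lowest by log2 fold change and by level in MRPL and in MRPS genes, and in other lists up to 3 genes per direction. MRPL3, MRPS7, MRPL41, MRPL54 and the genes at the ends of short lists were named after their values were seen, as were the length and GC summaries and the motif search. Lengths and GC content came from canonical transcripts of GENCODE version 44. Alternatives were other pseudocounts (1 and 0.01), filters (none, and a mean of 5 FPKM) and scalings, no trend, array weights, a replicate block, protein-coding genes alone and each sample left out.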

Additional observations from a re-analysis of the deposited data

How the results depend on the processing

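Of 18 alternatives, the median log2 fold change of the members changed sign under TPM scaling, to -0.029, and ranged from 0.0011 (without OFD1-depleted replicate 2) to 0.202 (without OFD1-depleted replicate 3) with 1 sample left out. Members called higher numbered 1 with no filter, TPM scaling, the same total without mitochondrially encoded genes or no trend, 4 among protein-coding genes alone, 6 under median-of-ratios scaling, 8 under quantile normalization, 10 with array weights, and 1 to 4 with 1 sample left out. Members called lower numbered 1 under TPM scaling (MRPS34), 3 with array weights, and 0 to 4 with 1 sample left out, all 4 without OFD1-depleted replicate 2. MRPL33 stayed past the threshold in 18 of 18 alternatives. MRPS33 did not with no filter, under TPM scaling, the same total without mitochondrially encoded genes or no trend, nor without control replicate 1, control replicate 3, OFD1-depleted replicate 2 or OFD1-depleted replicate 3. Beside these, calls over all 12025 genes tested were 1429 lower and 610 higher. They were 1974 and 264 under TPM scaling, 1432 and 408 under the same total without mitochondrially encoded genes, and 1302 and 496 with no trend. Under median-of-ratios scaling they were 1316 and 854, under quantile normalization 1311 and 1093, and with array weights 2263 and 1693. With 1 sample left out they ran from 867 to 1741 lower and from 244 to 1077 higher. With no filter 823 and 260 of 28501 genes were called, and among protein-coding genes alone 1473 and 577 of 10705. The higher share of calls was 29.9%, 11.8% under TPM scaling, 45.5% under quantile normalization and 42.8% with array weights. Other nuclear genes of mitochondrial translation had 5 lower and 1 higher calls under TPM scaling, 9 higher under quantile normalization, 7 lower and 14 higher with array weights, and 2 to 4 lower and 1 to 7 higher with 1 sample left out. The cause of these shifts was not tested.

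Of the 78 members, 27 changed sign under TPM scaling, 13 with array weights, 7 under median-of-ratios scaling, 6 under the same total without mitochondrially encoded genes, 5 under quantile normalization and 3 to 19 with 1 sample left out. Among the 35 genes followed one by one, those that changed sign were, under TPM scaling MRPL12 (-0.022), MRPL43 (-0.086), MRPS31 (-0.038), MRPS23 (-0.011) and MRPS16 (-0.024), with array weights MRPL12 (-0.0055), under quantile normalization MT-RNR2 (-0.087) and MRPL48 (0.0016), and under median-of-ratios scaling MRPL41 (0.0063) and MRPL54 (0.015). With 1 sample left out, the log2 fold changes ran from -0.293 to 0.022 (MRPL48), -0.370 to 0.102 (MRPL22), -0.067 to 0.251 (MRPL12), -0.037 to 0.161 (MRPL43), -0.482 to 0.0019 (MRPS26), -0.244 to 0.475 (MRPS23), -0.435 to 0.174 (MRPL41) and -0.493 to 0.280 (MRPL54). None of these passed the test with all samples.

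With the replicate number as a block, 2 members were higher and 0 lower, and 1534 genes were lower and 762 higher. The block also changed the call of MT-RNR2 (log2 fold change 0.50, limma adjusted p = 0.0128) and of AARS2 (-0.61, limma adjusted p = 0.0584), and called 46 cytosolic ribosomal protein genes and 13 mitochondrially encoded mRNAs higher. Deviations from the group means correlated at 0.058, 0.048 and 0.011 across genes between samples of the same number. With 3 samples in each group, such small correlations cannot decide whether the numbers pair the samples. Correlations between samples of different numbers ran from -0.080 to 0.050.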
